A study of Mus musculus with 3 samples.

Results

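A set of 801 genomic regions was described in which the estrogen-related receptor ERRα was strongly enriched in mouse liver and mTOR was raised only a little over the control in the same place. Regions were called from coverage averaged over 200-bp bins of chromosomes 1 to 19. The fold of a library was its coverage plus 0.2 divided by IgG coverage plus 0.2. Bins with ERRα coverage above 2.0 and an ERRα fold of at least 3 were merged where they touched, 0.348% of the bins with IgG coverage, which gave 21679 ERRα regions, and each region was judged in its bin of highest ERRα coverage. Of these, 1592 (7.34%) reached an ERRα fold of 10 and are called strong here. Among the strong regions, 801 (50.3%) had an mTOR fold from 1.5 to below 3 in that bin, 611 had an mTOR fold below 1.5, and 180 had an mTOR fold of 3 or more. The same mTOR limits were met in the highest bin of 31.7% of all ERRα regions, of 30.2% of the weaker ones, and in 10.6% of all bins with IgG coverage. These shares are set by the limits themselves and are given as a description.

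The study used liver chromatin of C57Bl/6 males aged 2 to 3 months, and the labels name no treatment or altered allele for any library. There were 3 groups of 1 library each, made with an mTOR antibody, with an ERRα antibody and with control IgG from rabbit. Both ChIP libraries combined 8 immunoprecipitations of chromatin pooled from 26 livers, and how the IgG library was pooled is not given. Variation between animals was averaged out by pooling, and no value has a replicate check. Whole liver holds several cell types, which these libraries cannot separate. The track headers gave 62500000 tags for mTOR, 74200000 for ERRα and 68800000 for IgG, and all coverage values are per 10000000 tags. With 1 library per group no test between groups was possible. Intervals below cover counting error of tags or the spread over regions of the same libraries, which are not replicates. They do not cover variation between animals or libraries.

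ERRα is an orphan nuclear receptor that binds DNA at extended hormone receptor half-sites. With the coactivators PGC-1α and PGC-1β it is known to control genes of mitochondrial respiration and fatty acid oxidation. mTOR is a serine/threonine kinase best known from complexes in the cytoplasm and on lysosomes that sense nutrients, and nuclear and chromatin-bound mTOR has also been described. Regions are given by position on build mm9; no gene annotation or sequence of that build was used here, so that no region is tied to a gene and no binding motif was searched.

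The 801 regions were chosen by values in the highest ERRα bin, so those values only describe them. Median ERRα coverage in that bin was 10.1 (quartiles 7.72 and 14.6, range 2.06 to 149). Median mTOR coverage was 1.27 (quartiles 0.978 and 1.67, range 0.100 to 4.34), and median IgG coverage was 0.526 (quartiles 0.4 and 0.697, highest 1.59). The median ERRα fold was 13.5 and the median mTOR fold 1.98. In approximate tags the median bin held 100 ERRα tags, 10.6 mTOR tags and 4.83 IgG tags, so each mTOR fold rested on few tags. The exact (Clopper-Pearson) 95% interval of the mTOR-to-IgG tag ratio lay above 1 in 148 of the 801 regions (18.5%), against 5.83% of all ERRα regions.

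**Figure D1:**
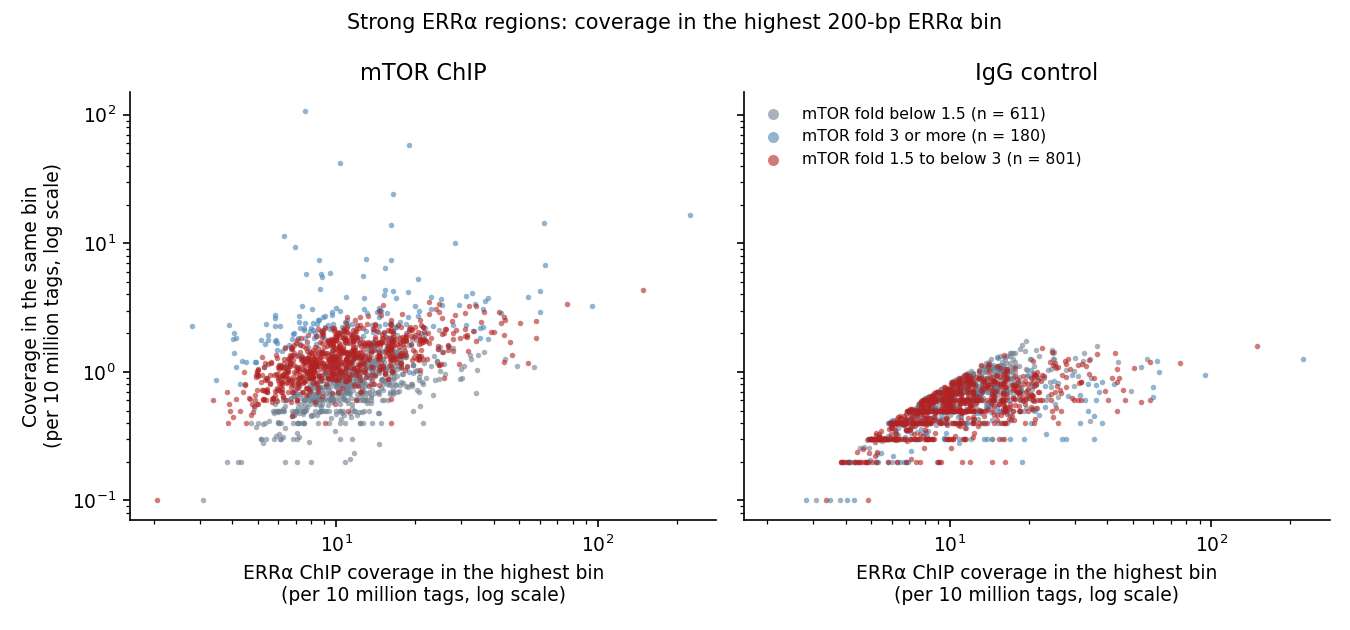
Coverage in the highest ERRα bin of the 1592 strong ERRα regions, with ERRα coverage on the x axis and mTOR (left) or IgG (right) coverage on the y axis, per 10000000 tags on log scales; each point is 1 region, and regions at 0 are left out. The 801 regions form the middle band of mTOR values by construction, and the slanted upper edge of the IgG points is the 10-fold ERRα limit.

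The limits of the set cut through continuous values. At the ERRα limit, chr7:105506401-105507000 stood just inside the fold of 10, with ERRα coverage of 8.66 and IgG coverage of 0.686, and chr4:134966801-134967600 just outside with a fold of 9.992. At the upper mTOR limit, chr13:37597801-37598400 was inside with an mTOR fold of 2.984, and chr14:62751201-62752000 was outside at 3.000, from coverage of 1.00 in mTOR and 0.2 in IgG. At the lower mTOR limit, 17 regions had a fold of 1.5 with bin means rounded to 5 decimals and folds to 9, and without this rounding the set had 800 regions. An example is chr15:55020801-55021600, with ERRα coverage of 16.2, mTOR coverage of 0.4 and IgG coverage of 0.2. There mTOR was below its own level 2 to 5 kb away (0.718), so that a low IgG value and not a high mTOR value carried the fold. The nearest region outside, chr19:45104601-45105400, had ERRα coverage of 18.3, mTOR coverage of 1.30 and IgG coverage of 0.801.

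IgG was low in the highest bin under this rule, which favours low IgG. IgG in the highest ERRα bin of the 801 regions was 0.826 times its own flanks 2 to 5 kb on both sides (median, quartiles 0.621 and 1.08). It was 1.04 times its flanks in the 611 regions with less mTOR and 0.682 times in the 180 regions with more. It was 1.02 times its flanks in the 631 regions found with the mTOR fold taken over mTOR flanks in place of IgG, and 1.32 times in the 662 found with both folds taken over own flanks. Flanks away from the bin were nearly alike in the 3 sets, at 0.659, 0.653 and 0.664 for IgG and at 0.726, 0.705 and 0.778 for mTOR. Measured against its own flanks, without IgG, mTOR in the bin stood at 1.72 (quartiles 1.30 and 2.25) in the 801 regions, 1.09 in the 611 and 2.95 in the 180. It was above its flanks in 729 of the 801 regions (91.0%), against 67.8% of all ERRα regions, and below them in the rest. The exact 95% Poisson interval of the mTOR tags lay above the flank level in 304 of the 801 (38.0%), against 14.7% of all ERRα regions. The mTOR bin value entered the rule, so neither share is evidence of its own.

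The 10 regions of highest ERRα coverage show what the set looks like where the counts are deepest. At chr3:28012401-28013600 coverage was 149 in ERRα, 4.34 in mTOR and 1.59 in IgG, an ERRα fold of 83.4 and an mTOR fold of 2.54. The interval of the mTOR-to-IgG ratio there ran from 1.41 to 5.19. mTOR was 7.92 times its flanks and IgG 3.07 times, the highest IgG ratio of the 10. At chr2:169928401-169929600 the coverage of ERRα, mTOR and IgG was 76.0, 3.35 and 1.18, with an mTOR interval of 1.35 to 6.24. Both maxima lay 1.00 bp apart in that region, the closest match of the 10.

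At chr1:192780001-192781600 coverage was 58.1 in ERRα, 2.48 in mTOR and 1.19 in IgG. At chr19:6996401-6997400 it was 58.0, 1.82 and 0.600, and another bin of this region was itself called for mTOR. At chr10:24589401-24590200 it was 53.8, 1.17 and 0.582. This last region had the lowest mTOR level of the 10, an mTOR interval of 0.686 to 8.21, and its mTOR maximum 274 bp from the ERRα maximum.

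At chr1:67048801-67049600 coverage was 50.4 in ERRα, 2.42 in mTOR and 1.07 in IgG. At chr16:37654401-37655400 it was 46.8, 1.36 and 0.600, and at chr11:19762001-19762800 it was 45.9, 1.72 and 0.720. The last of the 10 were chr11:117690001-117691800, with 44.2, 2.53 and 0.900, and chr13:97345201-97346400, with 43.7, 2.66 and 1.06. In all 10 regions mTOR lay above its own flanks, by 1.89 to 7.92 times. IgG also lay above its own flanks in 8 of them, by 1.08 to 3.07 times, the exceptions being chr19:6996401-6997400 (0.897) and chr16:37654401-37655400 (0.946). The mTOR excess over the flanks equalled only 1.14% to 4.90% of the ERRα excess. The interval of mTOR over IgG lay above 1 in 5 of them, on chromosomes 3, 2, 19, 11 (chr11:117690001-117691800) and 13.

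**Figure D2:**
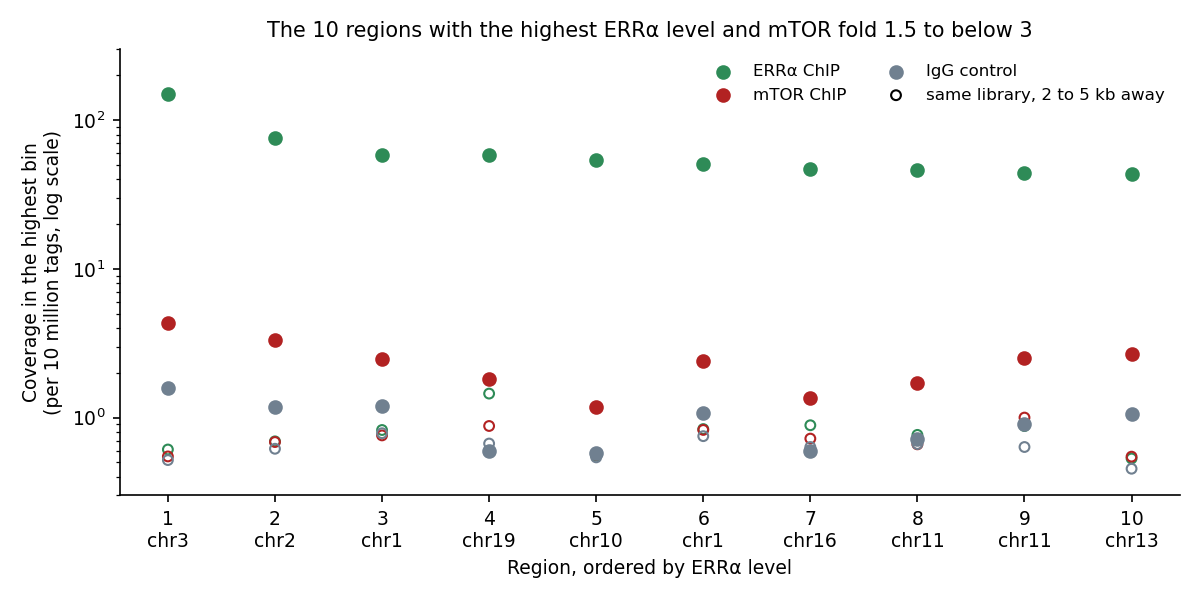
Coverage in the highest ERRα bin (filled points) and 2 to 5 kb away (open points) in each library for the 10 regions of highest ERRα coverage, per 10000000 tags on a log scale. mTOR (red) lies above its own open point in all 10 regions but well below ERRα (green), which ranges from 43.7 to 149.

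The mTOR profile around the base of highest ERRα coverage was a low peak on a broad base. Averaged over the 801 regions in 50-bp steps, mTOR coverage was 1.41 at the ERRα maximum, 1.87 times its flanks. It was 1.28 times its flanks at 300 bp, 1.18 times at 500 bp, 1.10 times at 1000 bp and 1.02 times at 2000 bp. ERRα coverage was 14.1 at its maximum and 4.02, 1.83, 1.28 and 1.08 times its flanks at those distances. IgG coverage had a shallow trough there, at 0.970 times its flanks at 300 bp and 1.00 times at 1000 bp.

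Relative to its height the mean mTOR profile was the wider when both were aligned on the ERRα maximum. The mTOR maxima lay at varying distances from that point, as described further on, which widens a mean aligned there. The mTOR width around its own maxima was not measured. Of the central excess over the flanks, mTOR kept 31.8% at 300 bp, 20.2% at 500 bp and 11.2% at 1000 bp, whereas ERRα kept 19.4%, 5.35% and 1.79%. The width at 50% of the central excess was 412 bp for mTOR and 348 bp for ERRα in the same regions. The 180 regions with more mTOR had an mTOR width of 403 bp and an ERRα width of 345 bp. Means at these distances include bins near some regions in which mTOR was itself called, described further on.

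**Figure D3:**
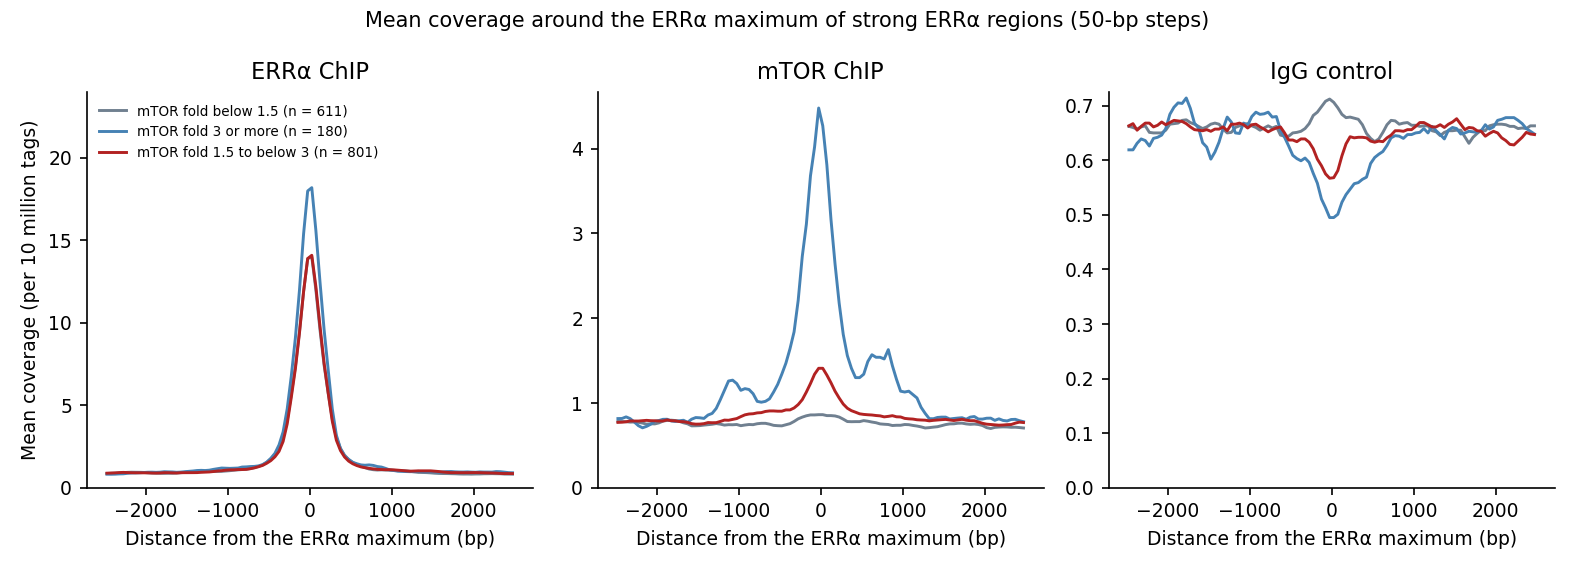
Mean coverage per 10000000 tags in 50-bp steps against distance from the ERRα maximum, for ERRα, mTOR and IgG (y axes differ), in the 801 regions (red), the 611 with mTOR fold below 1.5 (grey) and the 180 with mTOR fold of 3 or more (blue). ERRα peaks have nearly the same height in red and grey (14.1 and 14.0), mTOR differs at the centre as the rule requires, and IgG shows a trough at the centre in red and blue.

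mTOR coverage outside the highest bin was not used by the rule, although tags of about 150 bp carry some signal across its edge. ERRα and IgG coverage of the neighbouring bins entered the calling and merging of bins. At 200 to 500 bp from the ERRα maximum, mTOR was at a median of 1.20 times its flanks (quartiles 0.933 and 1.51), and IgG at 0.953 times (0.752 and 1.17). IgG was not below its flanks where IgG entered the rule less. In the 631 regions found with the mTOR fold over own flanks the medians were 1.34 for mTOR and 1.03 for IgG. In the 662 found with both folds over own flanks they were 1.38 and 1.12. mTOR exceeded its flanks at this distance in 552 of the 801 regions (68.9%), against 58.4% of all ERRα regions. IgG did so in 357 of the 801 (44.6%), against 51.4% of all ERRα regions. A ratio above 1.5 was found for mTOR in 206 regions (25.7%), against 16.7% of all ERRα regions. For IgG it was found in 42 (5.24%), against 9.18% of all ERRα regions. The strong regions with less mTOR had a median mTOR ratio of 1.05 at this distance, and those with more had 1.38. The quartiles of the 3 sets overlapped. Farther out, at 400 to 700 bp, which tags of that length in the highest bin do not reach, the 801 regions had 1.10 for mTOR (quartiles 0.862 and 1.39) and 0.948 for IgG.

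The mTOR maximum tended to lie close to the ERRα maximum, with a wide spread. Searched within 300 bp, the mTOR maximum lay at a median distance of 89.5 bp (quartiles 43.5 and 191), and the IgG maximum at 198 bp (121 and 246). A position drawn evenly over that window would have a median distance of 150 bp. The mTOR maximum was within 100 bp of the ERRα maximum in 438 of the 801 regions (54.7%, exact 95% interval 51.2 to 58.2), against 38.1% of all ERRα regions. The IgG maximum was that close in 158 of 800 (19.8%), against 26.4% of all ERRα regions. In 188 regions (23.5%) the mTOR maximum was more than 200 bp away, against 34.7% of all ERRα regions. The offset had no side: the mTOR maximum lay to the left in 397 regions (49.6%), and the median signed offset was 1.00 bp. A region with high mTOR and low IgG in the highest bin favours a near mTOR maximum and a distant IgG maximum, so the rule sets part of this difference. Over all 1592 strong regions, with no mTOR limit, the mTOR share within 100 bp was 47.6% and the IgG share 22.6%. These regions still had to pass the ERRα limit, in which IgG of the same bin is the divisor. In the 662 regions found with both folds over own flanks, the mTOR share was 62.7% and the IgG share 38.2%. The median distances there were 72.5 bp for mTOR and 139 bp for IgG. That setting was chosen after seeing the data, and its mTOR limits still favour a near mTOR maximum.

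**Figure D4:**
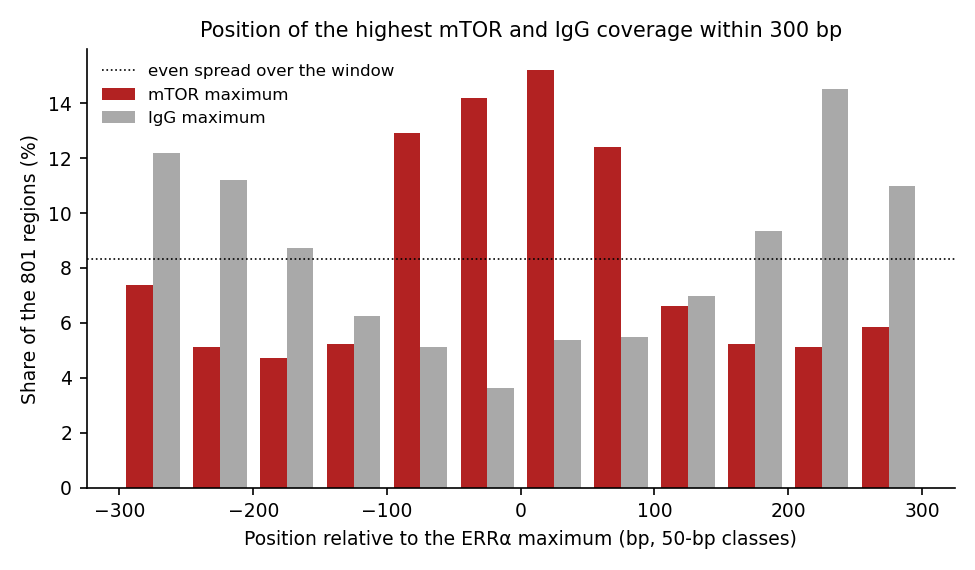
Share of the 801 regions (y axis) by position of the highest mTOR (red) or IgG (grey) coverage relative to the ERRα maximum (x axis, bp, 50-bp classes); the dotted line is an even spread over the window. mTOR maxima are most frequent in the central classes, with 15.2% from 0 to 50 bp, and IgG maxima at the edges, with 14.5% from 200 to 250 bp.

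The position of the ERRα maximum inside its bin, which the rule did not use, was then compared with that of the mTOR maximum, searched within 300 bp of the middle of the bin. Where the ERRα maximum lay in the left part of the bin (median -73.5 bp, 194 regions), the median mTOR position was -33.2 bp (quartiles -126 and 75.8). Where it lay in the right part (median 74.0 bp, 180 regions), the median mTOR position was 40.2 bp (-84.5 and 132). In the 2 central parts of the bin the mTOR medians were -4.50 and 4.25 bp. The quartiles of these 4 groups overlapped broadly, and Spearman's rho over the 801 regions was 0.12, against -0.01 for IgG over 800. It was 0.14 in the 611 regions with less mTOR, where the mTOR medians were -74.5 bp in the left and 89.2 bp in the right part, and 0.36 in the 180 regions with more. These correlations are across regions of the same libraries and describe them only. The stretch of constant coverage that held the mTOR maximum had a median length of 118 bp, which limits how finely a position could be read. Ties between such stretches were settled by nearness to the ERRα maximum or to the middle of the bin.

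The offset was shorter where ERRα was higher. In the lowest of 5 equal groups of the 801 regions by ERRα coverage (2.06 to 7.16) the median distance of the mTOR maximum was 132 bp, with 40.4% within 100 bp. In the highest group (16.0 to 149) it was 69.0 bp, with 65.6% within 100 bp. The IgG share within 100 bp also differed, at 10% in the lowest and 30% in the highest group. The 37 regions whose mTOR maximum was at least 20 tags deep had a median distance of 104 bp (quartiles 40.0 and 206). It was 87.0 bp in the 409 regions at 10 to 20 tags. The quartiles of the 37 regions include 87.0 bp. The upper mTOR limit holds mTOR down in the highest bin, and its effect on these distances was not tested.

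Under this rule, mTOR coverage rose with ERRα coverage across the 801 regions, and so did IgG. Over the 5 groups of ERRα coverage, median mTOR coverage in the highest bin was 0.872, 1.12, 1.31, 1.45 and 1.76. Relative to its flanks it was 1.23, 1.53, 1.78, 1.89 and 2.37. Median IgG coverage relative to its flanks was 0.526, 0.725, 0.883, 0.990 and 1.09 in the same groups. The median mTOR fold over IgG was therefore nearly level, at 2.00, 1.96, 1.94, 1.87 and 2.07, inside limits that the rule had set. An ERRα fold of at least 10 demands a low IgG value where ERRα is low, which ties IgG to ERRα and, through the mTOR limits, mTOR to both.

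Spearman's rho between ERRα excess and mTOR excess over their own flanks was 0.61 across the 801 regions (Pearson's r of the log2 values 0.50 over the 729 regions with both above 0). It was 0.64 between ERRα excess and IgG excess. With IgG excess subtracted from mTOR excess, rho was 0.42. At 200 to 500 bp from the ERRα maximum, mTOR excess gave 0.25 against central ERRα excess and IgG excess gave 0.32. The difference of mTOR and IgG excess there gave 0.06. Over all 1592 strong regions, where no mTOR limit cut the range, rho was 0.40 for mTOR, 0.61 for IgG and 0.12 for their difference.

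When both folds were taken over own flanks in place of IgG and bins with IgG above 2.0 were left out, 662 regions met the same limits and rho was 0.23 for mTOR and -0.16 for IgG. This setting was chosen after seeing the data. Over all 1318 strong regions of that setting, with no mTOR limit, rho was 0.22 for mTOR and -0.09 for IgG. Median mTOR coverage over its flanks did not rise steadily there. It was 1.92, 1.70, 1.57, 1.77 and 2.21 in 5 equal groups from the lowest to the highest ERRα coverage. With only the mTOR fold taken over its flanks, 631 regions met the limits and rho was 0.20, with 0.48 for IgG and -0.12 for the difference. The correlation of mTOR with ERRα was positive in each of these settings, while those of IgG and of the difference were not. It was smaller where IgG did not enter the mTOR fold. There the mTOR limits act on mTOR over its own flanks. With no mTOR limit, rho for mTOR was 0.40 over the 1592 strong regions and 0.22 over the 1318. The cause of the drop was not tested.

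**Figure D5:**
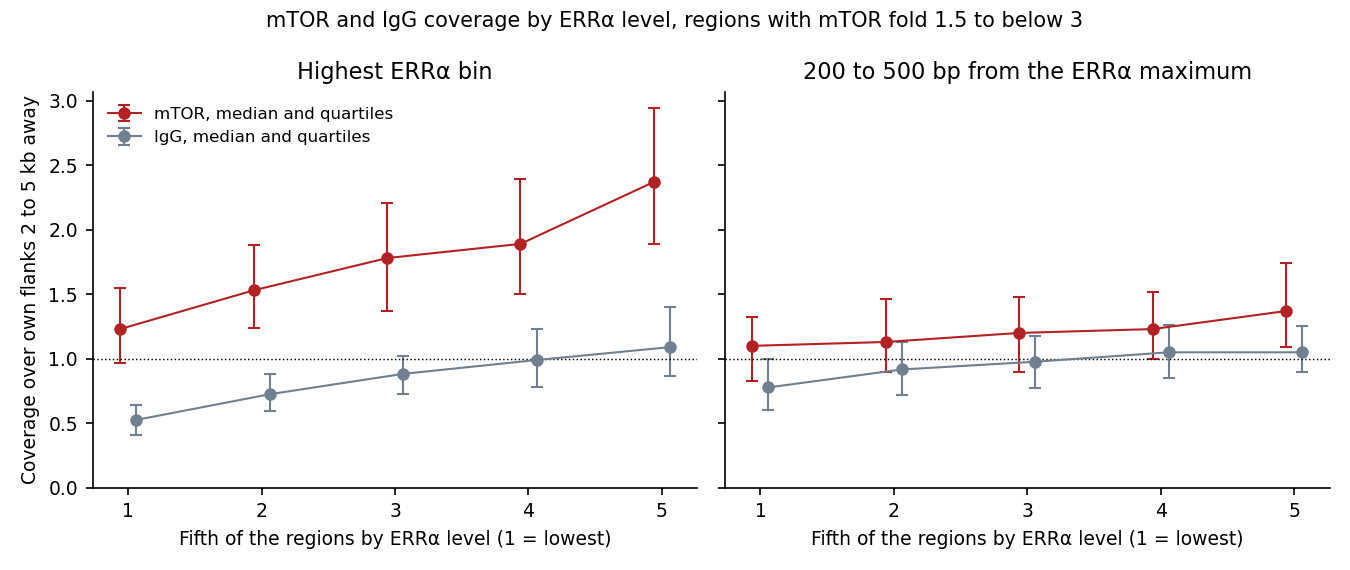
Median coverage over own flanks (points) with quartiles (bars) for mTOR (red) and IgG (grey) in 5 equal groups of the 801 regions by ERRα level, in the highest ERRα bin (left) and 200 to 500 bp from the ERRα maximum (right). Both libraries are higher in the upper groups in the bin, from 1.23 to 2.37 for mTOR and from 0.526 to 1.09 for IgG; at 200 to 500 bp mTOR goes from 1.10 to 1.37.

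The mTOR excess was a small share of the ERRα excess. Its median was 4.87% of the ERRα excess (quartiles 2.69 and 7.79), and the summed excesses gave 5.17%. IgG gave -0.800% in the same sum, under a rule that favours low IgG in this bin. Over all ERRα regions the summed shares were 7.03% for mTOR and 0.0177% for IgG, so the mTOR share was not particular to the set. In the 1318 strong regions with both folds over own flanks, IgG gave 4.02% in the lowest and 0.688% in the highest ERRα group. mTOR gave 13.7% and 5.39% in these groups. That setting was chosen after seeing the data. Across the 5 ERRα groups of the 801 regions the summed mTOR share was 3.60%, 5.76%, 6.38%, 5.80% and 4.53%, with no steady direction. Over all 1592 strong regions the sum gave 5.92%, or 5.37% without the single region of highest mTOR coverage. An mTOR level of own flanks plus 5.92% of the ERRα excess lay within the exact Poisson interval of the mTOR tags in 1339 of the 1592 regions (84.1%), was exceeded in 101 and was not reached in 152. Among the 801 regions, which the rule had limited in mTOR, it lay within the interval in 760. The share came from these same regions, and the intervals are wide: in 497 of the 801 (62.0%) they also held the flank level with no share added, so they say little about a common share.

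The ERRα peaks of the 801 regions were close in width to those of the 611 regions with less mTOR. At 50% of the maximum the peaks of the 801 regions had a median width of 339 bp (quartiles 294 and 392). It was 338 bp in the 611 regions and 320 bp in the 180 with more mTOR. The merged regions spanned a median of 600 bp, and 4 were a single bin. The narrowest regions, the 70 of 1 or 2 bins, had a median mTOR ratio of 0.997 at 200 to 500 bp, and the 127 regions of 5 bins or more had 1.33. ERRα coverage differed between them as well, with medians of 6.24 and 13.9.

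A second ERRα region lay within 2 kb of 174 of the 801 regions (21.7%), against 16.9% of the 611 regions with less mTOR and 27.2% of the 180 with more. The median gap to the next ERRα region was 9600 bp, against 11600 bp and 6600 bp. The median mTOR ratio at 200 to 500 bp was 1.21 in these 174 regions and 1.21 in the 388 with no other ERRα region within 10 kb. The regions were spread over all 19 autosomes. Chromosome 19 held 0.613 regions per covered Mb, and the lowest density, 0.171, was on chromosome 3, with a median of 0.316. As a share of the strong regions they made up 62.5% on chromosome 19 (35 of 56) and 43.5% on chromosome 18 (20 of 46), the ends of the range. The median mTOR ratio at 200 to 500 bp lay between 1.10 and 1.29 on 18 chromosomes and was 1.45 on chromosome 13, from 33 regions.

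mTOR was called, with coverage above 2.0 and a fold of at least 3, in another bin of the same region in 37 of the 801 (4.62%), against 1.35% of all ERRα regions. The regions of the set were wider. Among regions of exactly 3 bins the shares were 12 of 344 (3.49%) and, with these 12 included, 96 of 3277 (2.93%). The binomial intervals over regions were 1.82 to 6.01 and 2.38 to 3.57. Within 5 kb such a call was found beside 135 of the 801 (16.9%), against 12.6% of all ERRα regions. Of single bins with IgG coverage 0.138% met the call, a share per bin that cannot be set against shares of regions. Whether a called bin was a separate mTOR peak or the edge of one at the ERRα maximum was not tested. The count was 68 of the 611 regions with less mTOR (11.1%) and 94 of the 180 with more (52.2%). In the 135 regions the median distance of the mTOR maximum was 112 bp, and it was 86.0 bp in the 666 regions without such a call.

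The 5 regions with the largest mTOR ratio at 200 to 500 bp show where mTOR beside the ERRα maximum stood highest over its own flanks. At chr1:173033601-173034000 coverage in the highest bin was 9.61 in ERRα, 1.30 in mTOR and 0.760 in IgG, while mTOR at 200 to 500 bp reached 8.26, 12.8 times its flanks. At chr15:77016001-77016600 the bin held 6.70, 0.835 and 0.4, and mTOR beside it was 6.79 times its flanks. At chr2:119420201-119421000 it held 8.38, 1.21 and 0.435 with a ratio of 5.47, and at chr19:4717001-4717800 it held 9.76, 2.09 and 0.700 with a ratio of 3.64. In these 4 regions IgG at 200 to 500 bp was only 0.555 to 1.22 times its flanks, and mTOR was called in another bin within 5 kb. The mTOR maximum lay 289 to 297 bp from the ERRα maximum, at the edge of the search window. The region chr2:181747001-181747400 differed from them: mTOR was 6.09 times its flanks, but IgG was 8.16 times and ERRα 7.81 times. All 3 libraries stood well above flanks that were low, at 0.277 for mTOR, 0.224 for IgG and 0.259 for ERRα. Coverage at 200 to 500 bp was 1.68 in mTOR and 1.83 in IgG.

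The largest distances between maxima were sought among regions of the set whose mTOR maximum was at least 5 tags deep. The 5 regions were chr6:11981401-11982200, chr11:99002801-99003400, chr5:111224001-111224800, chr6:114828601-114829600 and chr1:176837401-176838200, all at 298 to 299 bp. Their mTOR maxima had coverage of 1.30 to 2.10, around the median of 1.70 in the 801 regions, and the mTOR ratio at 200 to 500 bp was 1.04 to 2.12. A maximum at the edge of the window shows only that mTOR was higher farther out than at the ERRα maximum.

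Membership depended on where the bins fell. With the bins shifted by 100 bp, 821 regions met the rule, and 515 of them had their ERRα maximum within 200 bp of one in the set, 62.7% of the 821 and 64.3% of the 801. With both folds taken over own flanks the shared regions were 298, or 45.0% of the 662 and 37.2% of the 801.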

How the data were processed

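The deposited files hold signal, as tag coverage in intervals of varying length. Per the file headers, the authors normalised it to 10000000 tags. Build mm9, MACS 1.4.1 and BWA 0.5.9 are named, without roles, per the submitters' processing notes. In the sources used here, tag extension and duplicate handling are not given. Coverage summed to about 150 bp per tag, from which tags per bin were approximated.

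Positions in no interval counted as 0. Bin means were rounded to 5 decimals and folds to 9 before comparison. Flanks were 2 to 5 kb from the ERRα maximum on both sides, and excess is coverage minus flanks. Measures were taken at 200 to 500 bp and 400 to 700 bp, and maxima within 300 bp. The caller was tested on simulated data.

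The members, limits and measures were chosen with earlier results of these data known. Named regions were the 10 of highest ERRα level, the 5 of largest mTOR ratio at 200 to 500 bp, the 5 of largest offset and those next to each limit. The 5 of largest offset were taken among regions whose mTOR maximum was at least 5 tags deep. Sequence features and gene lists were not analysed, since no mm9 genome or annotation was used here. SciPy 1.17.1, NumPy 2.4.6, pandas 2.3.3 and Matplotlib 3.10.9 were run under Python 3.11.15. Alternatives changed the bins, pseudocount, scaling, flanks, reference of the folds, search windows, call limits and chromosomes.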

Additional observations from a re-analysis of the deposited data

Results flagged for a closer look

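Chromosomes X and Y were left out by the rule. On chromosome X, 4 regions met the same limits for ERRα and mTOR in data that the report did not use, out of 13 strong and 135 ERRα regions there. The one with the largest mTOR fold was chrX:100710201-100710800, with ERRα coverage of 8.42, mTOR coverage of 0.884 and IgG coverage of 0.2, an mTOR fold of 2.71. The others were chrX:9833001-9833800, chrX:11478401-11479000 and chrX:34335801-34336800. Chromosome Y held no ERRα region.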

How the results depend on the processing

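Depth limits single regions: the median bin held 10.6 mTOR and 4.83 IgG tags. A change counts here where a median left its 95% order-statistic interval, a share, mean or correlation its 95% interval over regions, or a count moved by over 1.5 times. The mTOR measures without IgG subtracted kept their direction and the ERRα width stayed within its interval in the settings run. IgG in the bin over flanks (0.826) was 1.02 with the mTOR fold over own flanks and 1.32 with both folds over own flanks. The correlation of mTOR minus IgG (0.42) was -0.12 in the first of these, and that of IgG (0.64) was -0.16 in the other; both were examined under these settings after seeing the data. No paired analysis was possible because each group has 1 library. The number of regions (801) was 800 without rounding (also chosen after seeing the data), 459 with a pseudocount of 0.4 and 312 at an ERRα fold of 15. The mTOR ratio at 200 to 500 bp (1.20) was 1.25 with the larger pseudocount, 1.34 with the mTOR fold over own flanks and 1.38 with both folds over own flanks. At 400 to 700 bp the mTOR ratio was 1.10. The IgG ratio at 200 to 500 bp (0.953) was 0.980, 1.03 and 1.12 in the first 3 of these settings. The offset (89.5 bp) was 75.5, 69.5 and 72.5 bp in those first 3 settings, 78.5 at an ERRα fold of 15, 98.0 from the middle of the bin, and 79.5 and 122 with searches of 200 and 500 bp. The correlation (0.61) was 0.56, 0.20 and 0.23 in the first 3 settings, 0.68 at a fold of 15, 0.25 for mTOR at 200 to 500 bp and 0.42 with IgG subtracted. The share of ERRα excess (4.87%) was 5.58%, 6.94% and 6.58% in the first 3 settings and 4.0% at a fold of 15. Mean central mTOR over flanks, within 100 bp (1.82), was 2.13, 2.30 and 2.36 in those settings, 2.00 at a fold of 15, 1.76 with 100-bp bins and 1.76 scaled by the median bin. mTOR calls within 5 kb (16.9%) were 13.1% with the larger pseudocount, 12.7% with both folds over own flanks, 25.1% with 100-bp bins, 19.8% scaled by the median bin, 30.7% at 2-fold, 4.99% at 5-fold, 11.1% within 2 kb and 28.2% within 10 kb. Settings with both folds over own flanks, at 400 to 700 bp, from the middle of the bin, and the last 2 correlations were chosen after seeing the data. The cause of these changes was not tested.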
